A study of Mus musculus with 4 samples.

Results

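The lysosome is the compartment in which a cell digests sugar chains, lipids and proteins with enzymes that work in acid. The members described here are the soluble hydrolases of that compartment, the helper proteins that present lipids to them, proteins of its membrane, the proton pump that acidifies it, and a transcription factor that controls many of these genes. The rule goes by name and uses no measured value: every array probe whose gene name starts with Atp6v0 or Atp6v1, the subunits of the proton pump, and every probe named for 1 of a list of lysosomal genes. Cathepsins, the lysosomal proteases, were left out of the list. The rule found 52 genes on 96 probes, of 27671 genes on 41174 probes in all. They are 22 pump subunits, 20 hydrolases, 7 membrane proteins, 2 activator proteins and the regulator Tcfeb. The acid lipase listed as Lipa has no probe of that name, and the files call its probe Lip1. It is given beside the hydrolases and not counted with them.

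The proton pump, the vacuolar ATPase, has a peripheral part, V1, that splits ATP, and a membrane part, V0, through which protons pass into the lysosome. Several subunits exist in more than 1 form, of which some are used in nearly every cell and others mainly in kidney, bone, nerve or testis. In liver, lysosomes of hepatocytes and of the resident macrophages, the Kupffer cells, break down glycoproteins, worn-out organelles and part of the stored fat, and inherited loss of a hydrolase leads to storage of its substrate.

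The livers came from male C57BL/6 mice on a high-fat diet that were injected into the abdominal cavity with an ASO (antisense oligonucleotide, made to bind a transcript and lower its level) directed at Plin2, or with a scrambled control ASO. Plin2 encodes a protein that coats lipid droplets. Each mouse received 25 mg/kg, 2 times a week, over 4 weeks. On each of 4 Agilent arrays of 2 colours, the liver RNA of 1 Plin2-ASO mouse was in Cy3 (green) and that of 1 control mouse in Cy5 (red). Every array ran in this orientation, so a dye effect on a probe and the effect of treatment cannot be told apart. The age of the mice is not given in the sources used here.

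Values are log2 ratios of Plin2-ASO over control livers within an array, so that a negative value means a lower level in the livers labelled Plin2-ASO. A gene was called changed when its adjusted p (limma, Benjamini-Hochberg over all 18046 genes tested) was under 0.05. Plin2 itself, the check of the labels, was not lower: its log2 ratios on arrays 1 to 4 were 0.24, 0.15, 0.83 and 0.36, with an adjusted p of 0.156 by limma. Each direction below therefore holds for livers as labelled and would be mirrored if labels or dyes were exchanged. Array 3 stood apart: over all genes its mean correlation with arrays 1, 2 and 4 was 0.33, where that of arrays 1, 2 and 4 was 0.51 to 0.66, and 7.61% of its spots were marked as outliers, against 1.5% to 3.83%. No spot was saturated. In whole liver, fewer cells of a type and less RNA per cell cannot be told apart.

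The promoters of lysosomal genes are known for the CLEAR element, which the transcription factor TFEB (named Tcfeb in the files) binds. Searched for were its letters, TCACGTGA with a G before and a C after, that core alone, and the shorter E box CACGTG within it. The 3 matches are nested, and each reads the same on both strands. In RefSeq promoter windows of mouse build GRCm38.p6, from 250 bases before to 50 bases after a gene's start, 45 of the 52 members were found. CACGTG was in the window of 13 of these 45 members (28.9%), against 8.09% of all 27025 genes in the table. TCACGTGA was in that of 6 (13.3%), against 1.12%: Atp6v0d1, Atp6v0e and Atp6v1a of the pump, the hydrolase Gla, and the membrane proteins Cln3 and Mcoln1. The whole element was in that of Cln3 (2.22%), against 0.37% of all genes. The windows of Cln3, Mcoln1, Gla and Atp6v1a are printed with TCACGTGA in capitals, beside that of Gusb, a member that fell and whose window has no match. They are read 5′ to 3′ on the strand of the gene: Cln3 (the window with the match, of its 2) at chr7:126583187-126583486, minus strand; Mcoln1 at chr8:3500269-3500568, plus strand; Gla at chrX:134600956-134601255, minus strand; Atp6v1a at chr16:44139210-44139509, minus strand; and Gusb at chr5:130003000-130003299, minus strand.
Cln3: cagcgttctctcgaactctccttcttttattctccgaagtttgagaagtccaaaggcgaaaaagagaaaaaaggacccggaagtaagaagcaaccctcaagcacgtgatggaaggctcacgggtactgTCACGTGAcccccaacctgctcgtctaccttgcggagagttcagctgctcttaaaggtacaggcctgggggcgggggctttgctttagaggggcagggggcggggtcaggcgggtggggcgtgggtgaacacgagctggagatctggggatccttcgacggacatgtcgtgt
Mcoln1: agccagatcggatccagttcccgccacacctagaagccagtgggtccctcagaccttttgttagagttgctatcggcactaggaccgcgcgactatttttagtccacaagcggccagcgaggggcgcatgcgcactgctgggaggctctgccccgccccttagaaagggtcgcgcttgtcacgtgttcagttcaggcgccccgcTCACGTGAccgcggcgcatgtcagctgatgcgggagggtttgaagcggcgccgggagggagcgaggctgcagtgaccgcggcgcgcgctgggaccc
Gla: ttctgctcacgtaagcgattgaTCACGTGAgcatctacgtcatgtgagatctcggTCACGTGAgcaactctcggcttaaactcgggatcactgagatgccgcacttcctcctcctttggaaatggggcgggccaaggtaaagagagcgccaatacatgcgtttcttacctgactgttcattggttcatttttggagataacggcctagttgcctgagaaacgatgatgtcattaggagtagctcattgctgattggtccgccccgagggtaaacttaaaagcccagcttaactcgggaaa
Atp6v1a: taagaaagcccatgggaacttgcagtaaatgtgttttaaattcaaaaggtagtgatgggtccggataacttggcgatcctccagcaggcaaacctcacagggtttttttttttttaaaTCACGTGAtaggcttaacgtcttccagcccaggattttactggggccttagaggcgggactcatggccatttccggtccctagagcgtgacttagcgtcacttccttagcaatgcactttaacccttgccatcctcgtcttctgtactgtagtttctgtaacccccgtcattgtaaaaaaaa
Gusb: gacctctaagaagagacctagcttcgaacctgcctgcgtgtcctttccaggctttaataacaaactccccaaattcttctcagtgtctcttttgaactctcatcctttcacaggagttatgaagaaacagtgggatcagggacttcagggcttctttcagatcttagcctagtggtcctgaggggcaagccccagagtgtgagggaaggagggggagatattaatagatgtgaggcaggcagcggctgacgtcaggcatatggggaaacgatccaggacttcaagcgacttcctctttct

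The match in Cln3 starts at position -122 relative to the start on which its window is set. That start is not the outermost of Cln3, whose other window, without a match, lies further upstream at chr7:126585768-126586067. Relative to the gene's start, the match in Mcoln1 starts at -46 and that in Atp6v1a at -132, while Gla has 2 matches, the first at -228. These matches are letters in a window and not measured binding. Of the 13 tested members with CACGTG in the window none was called changed, and their median log2 ratio was -0.25. Of the 29 tested members whose window lacks it 6 were called, with a median of -0.31, where 9.74% of all genes were called. Of these 6, Cd63 and Laptm5 have a window that does not lie at the outermost start of the gene in the RefSeq table. The medians of members with and without CACGTG were thus close, and both lay below the -0.03 of all genes. For TCACGTGA the median was -0.16 over the 6 tested members with it and -0.30 over the 36 without it. The whole element was in the window of Cln3 alone, whose log2 ratio was 0.49. Asah1 and Atp6v1g1, both called, have no window in the table and are in none of these groups. The counts depend on array 3. Without it, Atp6v0e, Gla, Glb1, Lamp1 and Sgsh of the 13 with CACGTG were called. Members called without array 3 numbered 20 in all, and 32.7% of all genes were called.

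A probe on this array is a strand of 60 bases, and the probes of the same gene can differ in what they read. The probe of Cd63, the member with the lowest ratio, and the additional probes of Neu1 and Atp6v1f, whose values differed from those of the probe used, are given here in lower case. Their positions, in mouse build mm7 as the files give them, are chr10:128413370-128413583 for Cd63, chr17:33031854-33031913 for Neu1 and chr6:29400104-29402255 for Atp6v1f, all on the plus strand. The spans of Cd63 and Atp6v1f are longer than the probe, so these probes lie across an intron. No gene annotation of mm7 was used here.
Cd63: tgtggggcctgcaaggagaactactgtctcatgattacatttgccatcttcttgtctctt
Neu1: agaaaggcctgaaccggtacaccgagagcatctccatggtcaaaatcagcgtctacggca
Atp6v1f: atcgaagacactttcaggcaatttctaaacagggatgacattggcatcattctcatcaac

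Of the 52 members, 47 could be tested, 41 of them with a value on every array. In the livers labelled Plin2-ASO, 8 of the 47 members (17%) were called changed, against 9.74% of all genes tested. Of these, 7 fell (Cd63, Gusb, Laptm5, Atp6v0e2, Atp6v1g1, Neu1 and Atp6v1f), where 6.07% of all genes did, and Asah1 rose, where 3.67% of all genes did. Without array 3 the called members numbered 20 (42.6%), against 32.7% of all genes, and without array 1 or array 2 only Asah1 and Cd63 were called (4.26%), against 1.95% and 2.11%. Without array 4 Atp6v1g1, Neu1 and Atp6v1f were no longer called and Atp6v1e2 was, 6 members in all (12.8%), against 5.57% of all genes. Most members had small negative ratios: 36 of 47 were below 0 (76.6%), against 53.8% of all genes. Of the 41 members measured on all arrays, 19 were lower on every array (46.3%), against 19.5% of all such genes. Their median log2 ratio was -0.27, against -0.03 for all genes, and it was -0.39, -0.28, -0.22 and -0.11 on arrays 1 to 4. An unadjusted p under 0.05 was reached by 16 members (34%), against 26.9% of all genes. The members were brighter than genes in general, with a median log2 signal in the control livers of 11.93, against 9.72. The shares given here and below were not matched on signal.

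The pump was represented by 17 tested subunits, of which 13 had negative ratios (76.5%, against 53.8% of all genes). Atp6v1g1, Atp6v1f and Atp6v0e2 fell and none rose (17.6%, against 9.74% of all genes called and 6.07% called lower). The subunits listed as used in nearly every cell are 8 of V1 and 6 of V0, and the 8 others are forms of restricted tissues. Atp6v0a4, Atp6v0d2, Atp6v1c2 and Atp6v1g3, all restricted forms known from kidney or bone, were not well above background and were not tested. Atp6v1c1 was bright on every array, but its spot was marked as an outlier on all of them, and it was not tested either.

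Among V1 subunits of broad use, Atp6v1g1 and Atp6v1f fell. Atp6v1g1, part of the outer stalk that holds the pump still (probe at chr4:62984273-62984332, plus strand, mm7), had log2 signals of 14.08, 13.76, 13.90 and 13.70 in the livers labelled Plin2-ASO, against 14.64, 14.58, 14.31 and 14.60 in the control livers. The groups did not overlap, and the gap was narrowest on array 3. Its log2 ratio was -0.67 ± 0.14 (SE, n = 4), 1.59-fold lower, with an adjusted p of 0.0301 by limma. Atp6v1f, part of the central rotor (probe at chr6:29402540-29402599, plus strand, mm7), had log2 signals of 14.28, 14.11, 14.28 and 14.12 in the livers labelled Plin2-ASO, against 14.81, 14.71, 14.63 and 14.79 in the control livers. These groups did not overlap either. The log2 ratio of Atp6v1f was -0.54 ± 0.13 (SE, n = 4), 1.45-fold lower, with an adjusted p of 0.0439 by limma. Its additional probe, printed above, had a mean of -0.16 and was above 0 on array 3, while the additional probe of Atp6v1g1 had -0.43.

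The catalytic subunit and its partner showed smaller negative ratios that did not pass the test. Atp6v1a, which binds the ATP that is split, had a log2 ratio of -0.29 ± 0.18 (SE, n = 3, since array 3 was missing; adjusted p = 0.345), and its partner Atp6v1b2 had -0.27 ± 0.14 (SE, n = 4; adjusted p = 0.257). Atp6v1d, the shaft of the rotor, had -0.35 ± 0.16 (adjusted p = 0.224) and was above 0 on array 3 alone. Atp6v1h, which regulates the coupling of V1 to V0, had the highest ratio of the pump, 0.46 ± 0.23 (adjusted p = 0.25). Its values on arrays 1 to 4 were 0.57, 0.21, 1.25 and -0.19, so array 3 was highest and array 4 opposite in sign. Without array 3 its mean was 0.20, and its dimmest probe had a mean of -0.36. Atp6v1e1, part of the outer stalk, had 0.29 ± 0.20 (SE, n = 3; adjusted p = 0.408).

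In the membrane part V0, none of the 6 subunits of broad use was called, where 9.74% of all genes were. The median log2 ratio of the 6 was -0.13, or -0.02 without array 3. Unadjusted, 1 of them, Atp6v0a2, had a p under 0.05 by limma (16.7%, against 26.9% of all genes). Atp6v0c, the proteolipid of the proton-carrying ring, had -0.14 ± 0.15 (SE, n = 4; adjusted p = 0.586) and its ring partner Atp6v0b had -0.25 ± 0.13 (adjusted p = 0.259). Atp6v0e, a small subunit of V0, had the lowest ratio of the 6, with -0.52, -0.47, 0.37 and -0.47 on arrays 1 to 4. Array 3 alone was positive, and the mean was -0.27 ± 0.18 (adjusted p = 0.388). Without array 3 the mean was -0.49 (adjusted p = 0.0145 by limma), in a fit that called 32.7% of all genes. Atp6v0e did not pass without array 1, 2 or 4, and its dimmer additional probe had a mean of 0.23. Atp6v0a2, a form of the subunit that carries the proton path, had the highest, with 0.44, 0.39, 0.24 and 0.55. It was above 0 on all 4 arrays, at a mean of 0.40 ± 0.13, but missed the threshold (adjusted p = 0.0947). It passed without array 3 (adjusted p = 0.0193), but not without array 1, 2 or 4 (adjusted p = 0.381, 0.337 and 0.266). Its sister form Atp6v0a1 had -0.12 ± 0.14 (adjusted p = 0.623), and Atp6v0d1, which joins V0 to the rotor, had 0.09 ± 0.14 (adjusted p = 0.719).

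The 4 restricted forms that were bright enough to test had negative mean ratios, with a median of -0.60. This rests in part on array 3: without it the median was -0.33 and Atp6v1g2 had 0.10. Atp6v0e2, known as a form of the small V0 subunit that is abundant in brain (probe at chr6:48501630-48501689, plus strand, mm7), had log2 signals of 9.78, 10.59, 10.22 and 10.93 in the livers labelled Plin2-ASO, against 10.77, 11.52, 11.24 and 11.38 in the control livers. Within each array the Plin2-ASO liver was lower, although the groups overlapped, and both livers of array 1 were the dimmest of their group. The log2 ratio was -0.85 ± 0.15 (SE, n = 4), 1.80-fold lower, with an adjusted p of 0.0162 by limma, and an additional probe had -1.08. Atp6v1e2, known as the testis form of the E subunit, had -0.54, -1.08, -1.64 and -0.26 on arrays 1 to 4, lower throughout but widely spread. At -0.88 ± 0.23 it had the lowest ratio of the pump and missed the threshold (adjusted p = 0.0574). Atp6v1b1, known from kidney, had -0.36 ± 0.25 (adjusted p = 0.408) and Atp6v1g2, known from nerve cells, -0.03 ± 0.15 (adjusted p = 0.909), below 0 on array 3 alone.

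**Figure D1:**
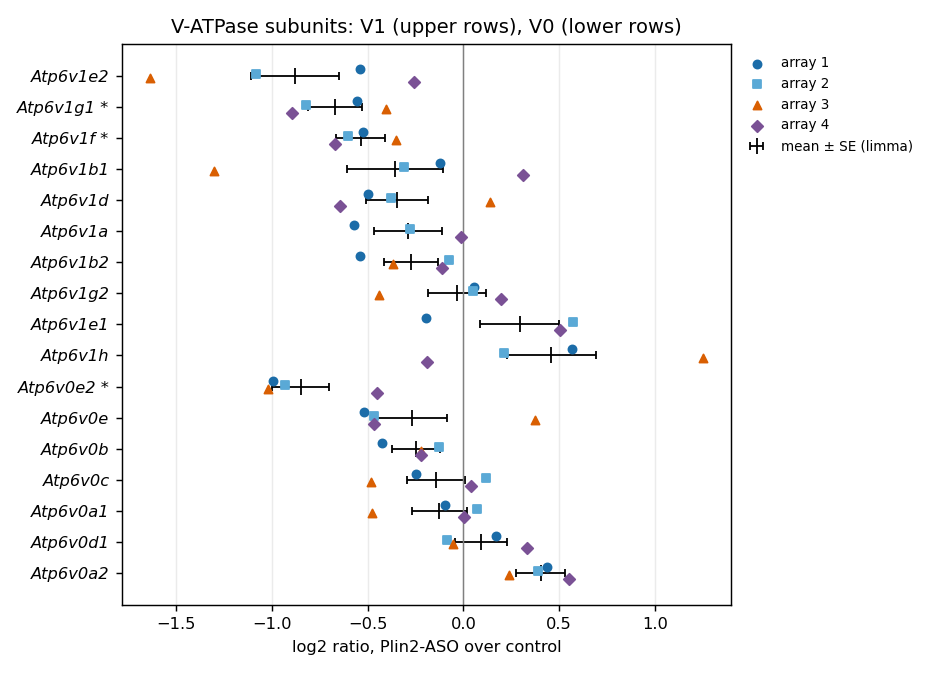
Log2 ratios of Plin2-ASO over control livers (x axis) for the 17 tested subunits of the proton pump (rows, V1 above V0, each sorted from low to high). Coloured symbols are the 4 arrays, black bars the mean and standard error from limma, and a star marks an adjusted p under 0.05; Atp6v1g1, Atp6v1f and Atp6v0e2 carry it, and array 3 often lies away from the others.

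Among the 20 hydrolases 18 had negative ratios (90%, against 53.8% of all genes), and 9 of the 18 measured on all arrays were lower on every array (50%, against 19.5%). Gusb and Neu1 fell and Asah1 rose, so 15% were called, against 9.74% of all genes. Their median log2 ratio was -0.30, with -0.48, -0.38, -0.15 and -0.18 on arrays 1 to 4.

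The 6 enzymes that degrade glycosaminoglycans, the long sugar chains of proteoglycans, had means below 0, with a median of -0.45; without array 1 or array 4, 5 of them did, the exception being Naglu. Gusb, beta-glucuronidase (probe at chr5:129227087-129227146, minus strand, mm7), had log2 signals of 11.55, 11.73, 11.77 and 11.55 in the livers labelled Plin2-ASO, against 12.69, 12.89, 12.56 and 12.35 in the control livers. The groups were clearly apart. The log2 ratio of Gusb was -0.97 ± 0.14 (SE, n = 4), 1.96-fold lower, with an adjusted p of 0.00818 by limma, and its dimmer additional probe had -0.28. Of the other 5, none was called. Sgsh, the sulfamidase of heparan sulfate, had -0.86, -0.77, -0.05 and -0.74 on arrays 1 to 4 (adjusted p = 0.0704), and Ids, iduronate 2-sulfatase, had -0.65, -0.94, 0.48 and -1.03 (adjusted p = 0.228). In both, array 3 lay far above the others. Without it both passed, at -0.79 (adjusted p = 0.00206) and -0.87 (adjusted p = 0.00208), in a fit that called 32.7% of all genes. Neither passed without array 1, 2 or 4. The dimmer additional probe of Sgsh had a mean of -0.07, and those of Ids had 0.12, -0.24 and -0.58. Idua, alpha-L-iduronidase, was lower on every array at -0.36 ± 0.13 (adjusted p = 0.121), Arsb, arylsulfatase B, had -0.30 ± 0.13 (adjusted p = 0.199), and Naglu, which removes N-acetylglucosamine, had -0.02 ± 0.13 (adjusted p = 0.951).

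Of the 7 enzymes of sphingolipid breakdown, 6 had negative ratios and Asah1 rose. Asah1, acid ceramidase, which splits ceramide into sphingosine and a fatty acid (probe at chr8:40126754-40126813, minus strand, mm7), had log2 signals of 11.43, 11.13, 10.77 and 11.17 in the livers labelled Plin2-ASO, against 10.40, 9.81, 8.93 and 9.62 in the control livers. The groups did not overlap, and the control liver of array 3 was the lowest. Asah1 had a log2 ratio of 1.44 ± 0.16 (SE, n = 4), 2.71-fold higher, with an adjusted p of 0.0043 by limma. It was the only member called higher, on a single probe, and without array 3 the mean was 1.30. Gla, alpha-galactosidase A, was the lowest of the sphingolipid enzymes, with -0.85, -1.02, -0.19 and -0.35 on arrays 1 to 4. All arrays were lower, arrays 3 and 4 less so, and the mean of -0.60 ± 0.17 missed the threshold (adjusted p = 0.0766). Hexa, the alpha subunit of beta-hexosaminidase, was also lower throughout at -0.55 ± 0.14 (adjusted p = 0.0574), and Smpd1, acid sphingomyelinase, at -0.22 ± 0.12 (adjusted p = 0.302). Without array 3 Gla and Hexa passed, at -0.74 and -0.64, in a fit that called 32.7% of all genes. Neither passed without array 1, 2 or 4. Glb1, beta-galactosidase, had -0.31 ± 0.14 (adjusted p = 0.225), while Galc, which degrades galactosylceramide, and Arsa, which desulfates sulfatide, both had -0.10.

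Of the 4 enzymes that trim glycoproteins Neu1 fell. Neu1, the lysosomal sialidase (probe at chr17:33032250-33032309, plus strand, mm7), had log2 signals of 13.06, 13.07, 13.05 and 13.05 in the livers labelled Plin2-ASO, against 13.80, 13.62, 13.57 and 13.48 in the control livers. The groups did not overlap, and the Plin2-ASO livers were almost equal. The log2 ratio of Neu1 was -0.56 ± 0.13 (SE, n = 4), 1.48-fold lower, with an adjusted p of 0.0382 by limma. The additional probe printed above, also well above background, had a mean of -0.06, with -0.58 on array 3 and 0.33 on array 4. Manba and Man2b1, which remove mannose, had -0.28 ± 0.15 (adjusted p = 0.279) and -0.05 ± 0.13 (adjusted p = 0.857). Fuca1, which removes fucose, had 0.12 ± 0.15 (adjusted p = 0.674), with -0.32 on array 3 and 0.21 to 0.30 on the others.

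The other 3 hydrolases act on glycogen, lipid-modified proteins or peptides, and none of them was called, where 9.74% of all genes were. Ppt1, which removes palmitate from proteins, had the lowest ratio, -0.54, -0.40 and -0.08 on arrays 1, 2 and 4 (mean -0.34 ± 0.17, n = 3, adjusted p = 0.258). Gaa, acid alpha-glucosidase, which digests glycogen, had the highest, with -0.25, 0.16, -0.63 and 0.12 (mean -0.15 ± 0.17, adjusted p = 0.618). Tpp1, a peptidase, was lower on all 4 arrays at -0.31 ± 0.14 (adjusted p = 0.216). Lip1, the acid lipase that frees fatty acids and cholesterol from lipids delivered to the lysosome, had -0.55, -0.34, -0.89 and 0.07, and its mean of -0.43 ± 0.18 did not pass (adjusted p = 0.179).

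The activator proteins bring membrane lipids within reach of the hydrolases. Psap, the precursor of the saposins, had -0.96, -0.60, -1.76 and -0.02 on arrays 1 to 4, a spread from almost level on array 4 to strongly lower on array 3. Its mean was -0.84 ± 0.26 (adjusted p = 0.0949), an additional probe gave the same -0.84, and without array 3 it was -0.53 (adjusted p = 0.0516). Gm2a, the activator of ganglioside breakdown, had 0.33, 0.65, 0.30 and 0.06, higher on all 4 arrays, with a mean of 0.34 ± 0.14 that did not pass (adjusted p = 0.187).

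**Figure D2:**
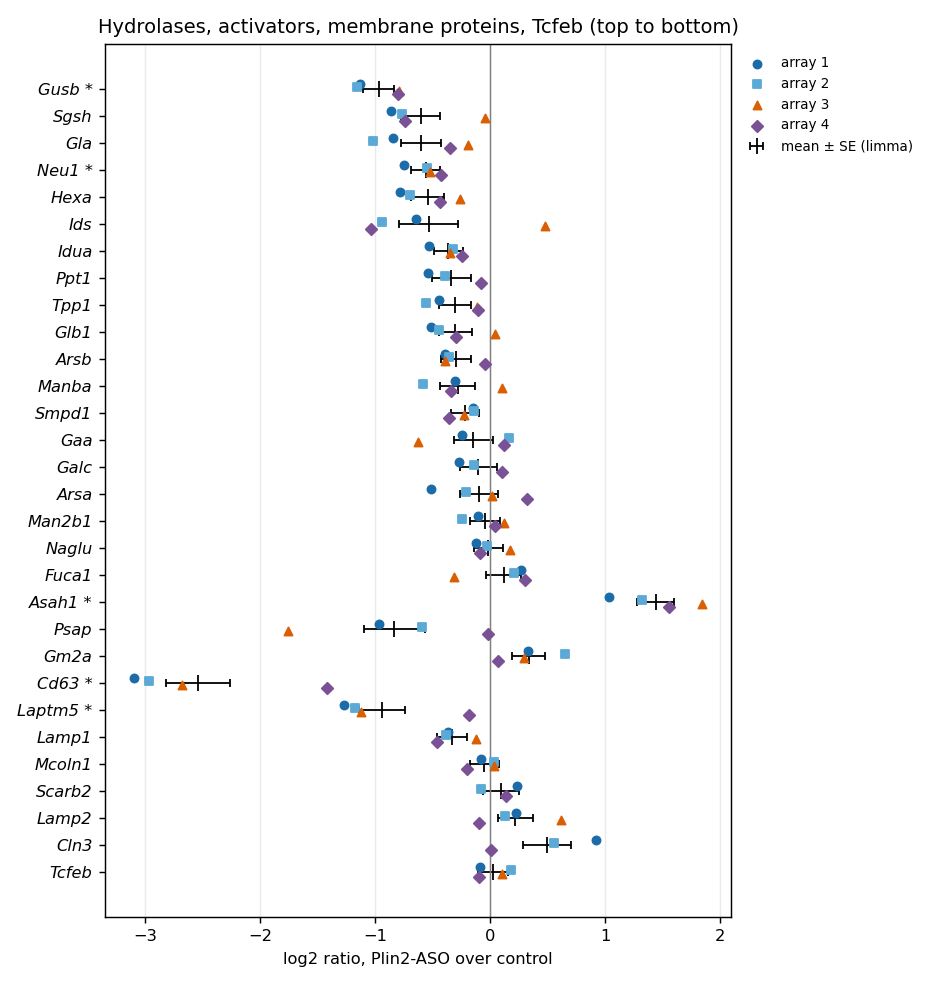
Log2 ratios of Plin2-ASO over control livers (x axis) for the 20 hydrolases, 2 activators, 7 membrane proteins and Tcfeb (rows, in this order from top to bottom, each class sorted from low to high). Coloured symbols are the 4 arrays, black bars the mean and standard error from limma, and a star marks an adjusted p under 0.05; Cd63 at -2.54 and Asah1 at 1.44 lie outside the range of the other members.

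Of the 7 membrane proteins Cd63 and Laptm5 fell (28.6%, against 9.74% of all genes called and 6.07% called lower). The median of the class was -0.05, with -0.084 to -0.0040 when an array was left out. Cd63, a tetraspanin of late endosomes and lysosomes, had log2 signals of 11.28, 11.39, 11.14 and 11.77 in the livers labelled Plin2-ASO, against 14.38, 14.36, 13.82 and 13.19 in the control livers. The groups were far apart, and array 4 had both the highest Plin2-ASO liver and the lowest control liver. The log2 ratio of Cd63 was -2.54 ± 0.28 (SE, n = 4), 5.83-fold lower, with an adjusted p of 0.00373 by limma. It rests on a single probe. Laptm5, a lysosomal membrane protein known from blood-forming and immune cells (probe at chr4:130149289-130149348, plus strand, mm7), had log2 signals of 10.20, 10.63, 10.57 and 11.04 in the livers labelled Plin2-ASO, against 11.47, 11.80, 11.69 and 11.22 in the control livers. The groups did not overlap, but on array 4 the livers were nearly level. Laptm5 had a log2 ratio of -0.94 ± 0.20 (SE, n = 4), 1.92-fold lower, with an adjusted p of 0.0321 by limma, and an additional probe had -0.54.

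The other 5 membrane proteins were not called. Lamp1, a main glycoprotein of its membrane, was lower on every array at -0.33 ± 0.13 but did not pass (adjusted p = 0.153), whereas Lamp2, its relative, had 0.22 ± 0.15 (adjusted p = 0.407). Scarb2, the receptor that carries glucocerebrosidase to the lysosome, had 0.09 ± 0.16 (n = 3, adjusted p = 0.749), and Mcoln1, a calcium channel, had -0.05 ± 0.13 (adjusted p = 0.823). Cln3, the product of a gene for a childhood neuronal storage disease, had the highest ratio of the class, with 0.92, 0.55 and 0.01 on arrays 1, 2 and 4. Its mean of 0.49 ± 0.21 did not pass (n = 3, adjusted p = 0.20), and its additional probe had -0.27. The ratio of Cln3 was 0.15 with outlier spots kept and 0.10 in the deposited series table, so its rank depends on these choices. Tcfeb, the transcription factor itself, had -0.09, 0.18, 0.11 and -0.09 on arrays 1 to 4 and a mean of 0.03 ± 0.13 (adjusted p = 0.921). Its 95% interval of -0.28 to 0.33 bounds the difference in its transcript, not in its protein.

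**Figure D3:**
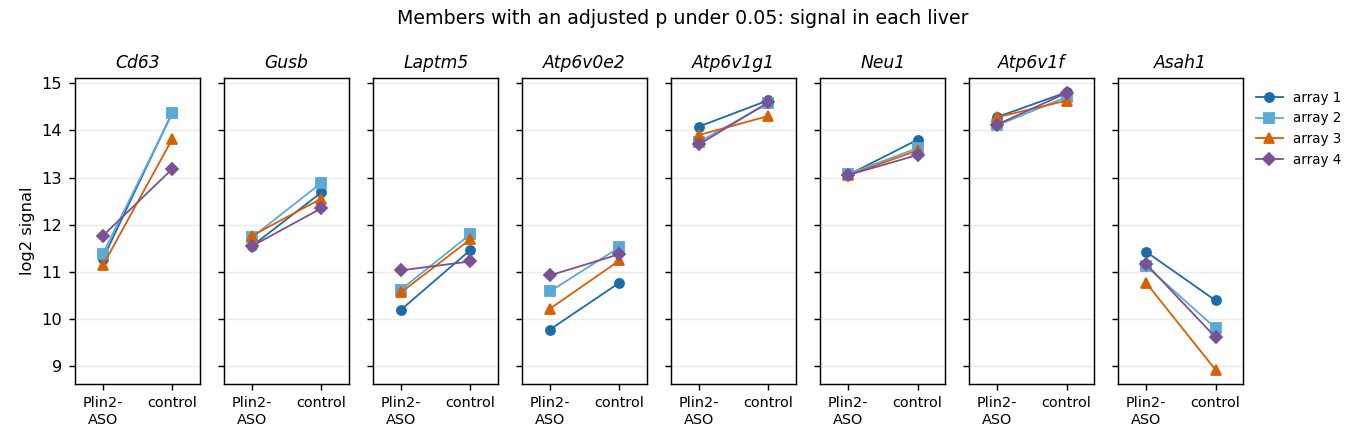
Log2 signal (y axis, same scale for all panels) of the 8 members with an adjusted p under 0.05 in the Plin2-ASO and the control liver of each array, joined by a line per array. Every line of the first 7 members goes up towards the control liver and every line of Asah1 goes down; signals of different probes are not comparable between panels.

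Compared with each other, the pump and the hydrolases had similar medians. The median of the pump was -0.42, -0.13, -0.37 and -0.11 on arrays 1 to 4, and the difference of pump minus hydrolase medians was 0.05, 0.25, -0.21 and 0.06. Its mean of 0.04 was smaller than the spread between arrays (SD 0.19, n = 4), and its sign was not the same on all arrays. The median of the membrane proteins was -0.08, -0.08, -0.12 and -0.19, so that pump minus membrane proteins was -0.14 on average (SD 0.19, n = 4), also within the spread. The membrane proteins had the widest range, from -2.54 to 0.49, against -0.88 to 0.46 in the pump and -0.97 to 1.44 in the hydrolases.

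Markers of other liver cell types moved on the same arrays. The share of all genes called was 9.74%. Of 22 tested markers of macrophages, 12 fell and 4 rose (72.7% called). Those that rose were Cd163, Clec4f, Vsig4 and Marco, known from resident macrophages. Those that fell included Cd5l, also known from resident macrophages (-1.02, adjusted p = 0.0471), as well as Trem2, Gpnmb and Cd68. The summed signal of this list, over its 20 genes measured on all arrays and so without Clec4f and Marco, was 73410 to 115170 in the livers labelled Plin2-ASO, against 175942 to 320115 in the control livers, and Timd4 was not above background. The brightest of these 20 in the control livers were Cd5l and Lyz2, at mean log2 signals of 15.97 and 15.52. Of 12 stellate cell markers 7 fell (Col3a1, Col1a1, Sparc, Dcn, Col1a2, Lum and Lrat) and none rose (58.3%). Timp1, Pdgfrb, Des, Acta2 and Reln were not called, at -0.65, -0.65, -0.18, 0.11 and 0.10. Over 11 markers the summed signal was 50575 to 68851 in the livers labelled Plin2-ASO, against 121021 to 198442 in the control livers. The brightest were Dcn and Col3a1, at 16.17 and 15.01 in the control livers. Of 12 endothelial markers 5 fell (Egfl7, Tie1, Vwf, Stab1 and Pecam1) and none rose (41.7%). Their sums were 20980 to 28558 in the livers labelled Plin2-ASO, against 30842 to 45080 in the control livers. Of 16 hepatocyte markers 2 rose (G6pc and Asgr2) and 2 fell (Alb and Apob), so 25% were called. Their sums, over 15 of them, were 805432 to 1045150 in the livers labelled Plin2-ASO, against 967258 to 1081780 in the control livers. The part of these cell types in the ratios of Cd63, Laptm5, Gusb and the other members was not tested. On array 3 the sum of 8 adipocyte markers was higher by 2.17 on the log2 scale, while it was lower on the other arrays, from -1.65 to -0.24, and 1 of them, Cfd, was called higher. Of 5 tested bile duct markers Spp1 and Krt19 fell and none rose (40%), and Epcam was not tested. Krt7, Sox9 and Cftr had 0.32, 0.06 and 0.01, and the list median was 0.01. The sums, over 4 markers without Krt7, were 6842 to 11372 in the livers labelled Plin2-ASO, against 21736 to 41431 in the control livers. Spp1 was the brightest of the 4, at a mean log2 signal of 14.64 in the control livers. Sox9, Cftr and Krt19 had 10.51, 9.99 and 9.37 there.

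**Figure D4:**
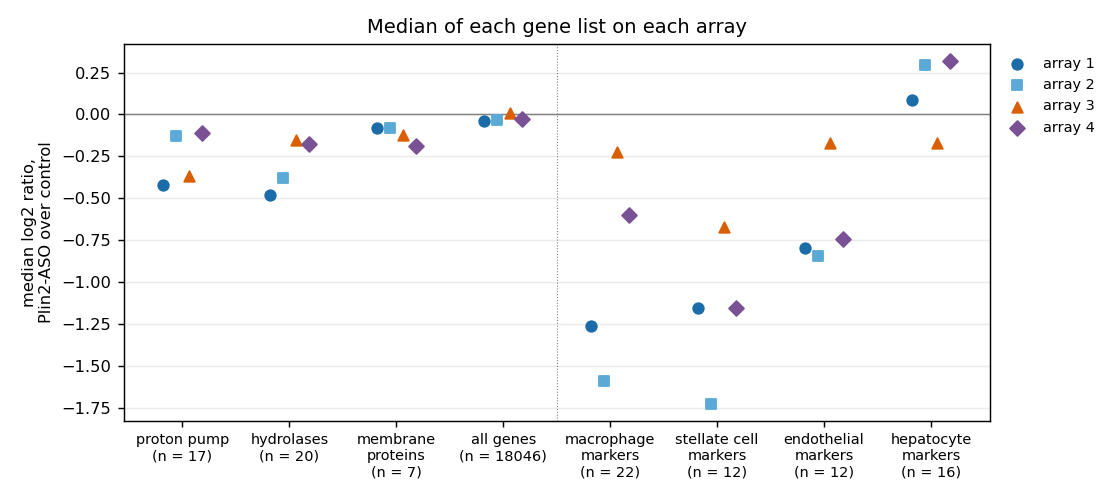
Median log2 ratio of Plin2-ASO over control livers (y axis) of each gene list on each of the 4 arrays (symbols), with the number of genes tested below each name. The pump and hydrolases lie between -0.48 and -0.11, below the all-gene medians near 0, while the macrophage, stellate cell and endothelial marker lists lie lower on arrays 1, 2 and 4.

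Other genes of the lysosome were taken from lists of the pathway. Of 22 further hydrolases 3 fell and 1 rose (18.2%, against 9.74% of all genes), with a median of 0.02. Prcp, a carboxypeptidase, fell by 0.76 ± 0.14 on the log2 scale (adjusted p = 0.0203), and Scpep1, another carboxypeptidase, fell by 0.95 ± 0.21 (adjusted p = 0.0413). Dpp7, a dipeptidyl peptidase, rose 2.14-fold (adjusted p = 0.0317). The remaining call, Naaa, an amidase of fatty acid ethanolamides, was named after its value was seen, at -0.58 ± 0.14 (adjusted p = 0.0482). Of 21 further membrane proteins 2 fell and 1 rose (14.3%, against 9.74% of all genes), with a median of 0.04. Cln6, a protein of the endoplasmic reticulum linked to neuronal storage disease, had -1.72 ± 0.20 (adjusted p = 0.00468). Cd68, a macrophage relative of the Lamp proteins that is also on the macrophage list, had -1.78 ± 0.23 (adjusted p = 0.00601). Clcn7, the chloride exchanger of the lysosome, had 0.60 ± 0.14 (adjusted p = 0.0427). None of the 4 tested genes listed beside the pump was called, where 9.74% of all genes were. None reached an unadjusted p under 0.05 by limma, against 26.9% of all genes. Wdr7, a factor of pump assembly, was nearest at 0.35 ± 0.16 (adjusted p = 0.212), then Dmxl1 at -0.21 and Tcirg1 at -0.25. Tcirg1 is itself a V0 subunit, known from osteoclasts, which the rule by name left out of the pump.

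Of 21 genes that sort hydrolases and vesicles to the lysosome 3 fell and 2 rose (23.8%, against 9.74% of all genes). Vps41, a tether of vesicles to lysosomes, rose by 1.42 ± 0.16 (adjusted p = 0.00422), while Ap1s1 and Ap1m1, subunits of the adaptor that packs hydrolases at the Golgi, fell by 0.79 ± 0.14 (adjusted p = 0.0175) and by 0.63 ± 0.14 (adjusted p = 0.0346) on the log2 scale. The other calls, named after their values were seen, were Vps18 at -0.55 ± 0.13, a further tether subunit, and Ap3d1 at 0.98 ± 0.23, of another adaptor. The mTOR pathway holds TFEB in the cytoplasm. Of 13 relatives of Tcfeb and members of this pathway, none was called by limma, where 9.74% of all genes were. An unadjusted p under 0.05 by limma was reached by 3 of the 13 (23.1%, against 26.9% of all genes). Fnip2, a partner of folliculin, came nearest at -0.52 ± 0.13 (adjusted p = 0.0502), followed by Rptor, the scaffold of mTOR complex 1, at 0.84 ± 0.24 (adjusted p = 0.0699), and Tsc1, a brake on that complex, at 0.42 ± 0.15 (adjusted p = 0.122). Of 18 autophagy genes 2 rose and none fell (11.1%). This share was close to the 9.74% of all genes called, while 3.67% of all genes were called higher. Those that rose were Atg3 and Atg7, the enzymes that attach LC3 to lipid, at 0.92 ± 0.16 (adjusted p = 0.0152) and 0.58 ± 0.14 (adjusted p = 0.0473). Uvrag, which acts in autophagosome maturation, had 0.42 ± 0.13 (adjusted p = 0.0999).

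The members that had more than 1 bright probe show how far a value depends on the probe. For 27 members there were 34 pairs of the brightest and another kept probe, and 24 pairs had the same sign. The 10 pairs of opposite sign belonged to 8 members, Atp6v0a1, Atp6v0e, Atp6v1h, Cln3, Glb1, Ids, Lamp2 and Mcoln1, none of which was called. The median absolute difference within a pair was 0.264 on the log2 scale. Among the called members with an additional probe, Atp6v0e2 had the lower value on it, and Gusb, Laptm5, Atp6v1g1, Neu1 and Atp6v1f had values nearer to 0.

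**Figure D5:**
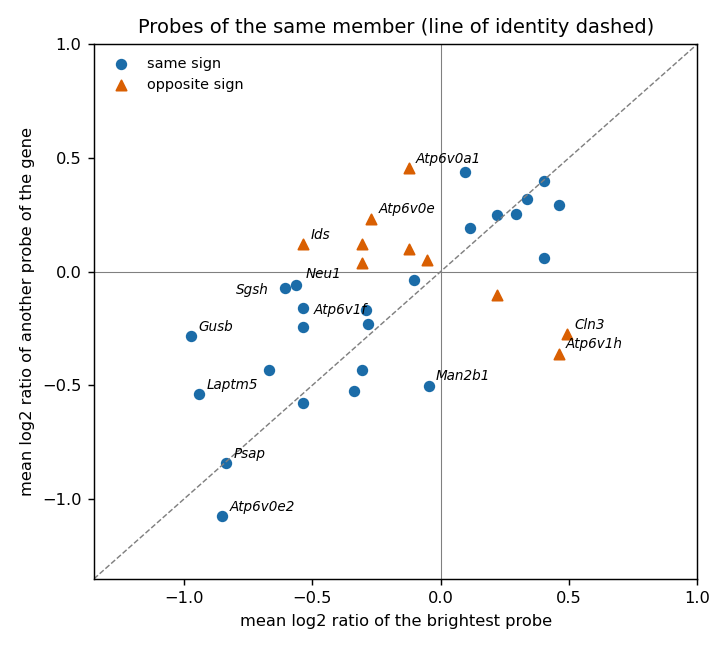
Mean log2 ratio of Plin2-ASO over control livers of another kept probe (y axis) against that of the brightest probe of the same member (x axis), 34 pairs of 27 members. Circles mark pairs of the same sign and triangles the 10 of opposite sign; Neu1 and Gusb lie well above the dashed line of identity, and Psap lies on it.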

How the data were processed

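Liver RNA of 4 mice labelled Plin2-ASO and of 4 control mice was measured on 4 Agilent arrays, each with 1 mouse of either group, in 1 slide and scan. Per the labels' protocols, RNA was amplified and dye-coupled, control in Cy5. Per the file headers, spot intensities came from Feature Extraction 9.5.1.1. The mean signal and median background intensities were used as deposited. The deposited log10 ratio is red over green, and the authors' series table equalled it on the log2 scale. Both served as alternatives with the sign turned.

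Normexp with an offset of 50 corrected the background, and loess normalized each array, in limma 3.58.1 under R 4.3.3. Spots marked as outliers were set to missing. A probe was kept when well above background on at least 3 arrays in 1 channel. The brightest kept probe with values on at least 3 arrays stood for its gene. This left 18046 genes, tested against 0 with lmFit and eBayes (two-sided, 7.21 total degrees of freedom, Benjamini-Hochberg over all genes, 95% intervals). Every adjusted p in the text is from limma. Log2 signals are per channel after loess and Aquantile, and summed signals are linear. The test was tried on simulated data. Probes were named through the RefSeq table of GRCm38.p6, and positions are mm7. Precision is limited by the number of arrays. The rule for members uses names alone, but it, the lists and the tests were set with earlier results of these data known. Called members and the highest and lowest of each class are given per array, and the 3 genes with the smallest p of each pathway list are named.

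Alternatives covered background, normalization, filters, probe choice, model, threshold and each array left out.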

Additional observations from a re-analysis of the deposited data

Results flagged for a closer look

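In 6 of the 41 members measured on all 4 arrays, a single array lay far from the other 3 by Dixon's criterion, which chance meets in about 1 in 20 groups. The share of all genes that meet it on these arrays was not determined, so the count is not known to be particular to the members. Array 3 was the distant array for Atp6v0e (log2 ratio 0.37, against -0.52 to -0.47 on the others), Fuca1 (-0.32, against 0.21 to 0.30) and Sgsh (-0.047, against -0.86 to -0.74). Array 4 was the distant array for Laptm5 (-0.19, against -1.27 to -1.13), Atp6v0e2 (-0.45, against -1.02 to -0.93) and Arsb (-0.050, against -0.39 to -0.36). Laptm5 and Atp6v0e2 were called changed with array 4 in the fit. The medians of the pump, hydrolases, membrane proteins and their difference had no such array.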

How the results depend on the processing

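Cd63 and Asah1 were called under all 16 alternatives, Gusb under 14, Atp6v0e2 under 12, Atp6v1g1 and Laptm5 under 11, Neu1 under 8 and Atp6v1f under 6. The members that fell numbered 3 with median centring, the software's ratio or the deposited series table. Median centring also moved the membrane protein median to 0.013. At an adjusted p under 0.1, 2994 genes were called, with 2 members higher and 12 lower. Leaving out each array in turn gave 351 to 5906 genes, 1 to 18 members lower and 1 to 2 higher, the low end without array 1 and the high end without array 3. Naglu, near 0, was 0.046 with median centring and 0.11 with the software's ratio and the series table. Cln3, at 0.49, was -0.016 with the mean of all kept probes, 0.15 with outlier spots kept and 0.10 with the series table. With an array left out, Naglu ranged over -0.078 to 0.019 (above 0 without array 1 or 4), Tcfeb over -0.027 to 0.066 (below 0 without array 2 or 3) and Gaa over -0.25 to 0.011 (above 0 without array 3). The cause was not tested. With the channels as independent samples and no replicate block, 1826 genes and 10 members were called, against 1758 genes and 8 members with each array as a pair. Medians of subclasses with an array left out were added after the data were seen. The slide could not be a block, since all arrays share it. The dyes were not exchanged, and 5 members were not tested.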
